A study of Mus musculus with 8 samples.

Results

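The slow-fiber contractile isoforms are 10 genes whose products build or drive the contractile apparatus of slow-twitch muscle fibers: *Myh7*, *Myh7b*, *Myl2*, *Myl3*, *Tnnt1*, *Tnni1*, *Tnnc1*, *Tpm3*, *Atp2a2* and *Casq2*. They were taken by gene name from a table of 32390 rows, and all 10 were present once and passed the filter on low counts that left 12725 rows for testing. The table came from bulk RNA-seq of gastrocnemius muscle of 4 control mice (Nox4 fl/fl, in which both *Nox4* alleles carry loxP sites but no Cre is present) and 4 NOX4-deficient mice (MckCre:Nox4 fl/fl). All were males on standard chow, 21 months old by the labels and in 1 batch. *Nox4* encodes an NADPH oxidase that makes hydrogen peroxide. Cre was driven by the muscle creatine kinase promoter, which is active mainly in skeletal muscle and less so in heart, so that the other cells of the muscle keep *Nox4*. The control mice carry no Cre, and an effect of Cre itself cannot be told apart from that of the deletion. The comparison asks whether the slow contractile program differed with the loss of NOX4, and the 4 mice of each genotype also show how far the isoforms moved together from mouse to mouse.

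Mammalian muscle fibers are slow or fast according to the isoforms they make of the same set of proteins. Slow fibers use the heavy chain MYH7 with the light chains MYL2 and MYL3, slow forms of the troponin subunits, the slow tropomyosin TPM3, the calcium pump SERCA2 (*Atp2a2*) and the cardiac form of calsequestrin (*Casq2*), and most of these proteins also serve in the heart. The mouse gastrocnemius is mainly a fast muscle, with slow fibers in its deep part, so the amount of slow fiber RNA in a sample also depends on which part was taken. In bulk RNA, fewer slow fibers and less slow isoform RNA per fiber cannot be told apart.

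The libraries held between 16350548 and 19804661 counts on genes in control and between 16628305 and 19216987 in NOX4-deficient muscle, and values are given as CPM, counts scaled to library size with edgeR's TMM factors. *Nox4* itself averaged 3.27 ± 1.42 CPM over the controls and 2.07 ± 0.220 CPM over the NOX4-deficient mice (SD, n = 4 each), with overlapping groups. Its log2 fold change of -0.65 did not pass edgeR's quasi-likelihood test (Benjamini-Hochberg adjusted p = 0.207), and without control replicate 1 it was -0.36 (adjusted p = 0.489). The skeletal muscle markers were high in all 8 libraries, summing to 65330 to 80500 CPM over the controls and 71320 to 78770 CPM over the NOX4-deficient mice. The library of control replicate 4 stood apart in several heart genes: *Myh6*, the heavy chain of the atria and of the adult mouse ventricle, had 564 counts there against 2 to 16 in the other 7 libraries, and *Tnni3*, cardiac troponin I, had 298 against 0 to 10. *Nppa* had 36 counts there against 0 to 2, *Nppb* 18 against 0 to 1 and *Tnnt2* 584 against 38 to 71, while *Myl7*, a light chain of the atria, was at 0 in every library. *Actc1* and *Myl4*, also on the list of heart genes, were not highest there. The summed CPM of the 9 listed heart genes was 134.7 in NOX4-deficient replicate 3 and 135.8 in control replicate 4. Since heart muscle also makes several of the slow isoforms, the genotype fits and the slow to fast ratios were repeated without control replicate 4. Hemoglobin RNA moved with genotype: the summed CPM of the 3 blood genes in the table was 47.57 to 52.7 in control and 72.29 to 158.9 in NOX4-deficient muscle, highest in NOX4-deficient replicate 1 and lowest in NOX4-deficient replicate 4. The part of heart and blood RNA in the results that follow was not tested.

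The upstream sequences of *Tnnt1*, *Tnni1* and *Tnnc1*, whose levels moved together from mouse to mouse, and of *Casq2*, which alone passed the test between genotypes, are shown as the 250 bases before the transcription start (RefSeq, mouse build GRCm38.p6, 5′ to 3′ on the gene's strand). They lie at chr7:4515976-4516225 on the minus strand for *Tnnt1*, and on the plus strand at chr1:135799171-135799420 for *Tnni1*, chr14:31208062-31208311 for *Tnnc1* and chr3:102086165-102086414 for *Casq2*. Capitals mark the E-box CANNTG (the site class of MyoD-family factors), the MCAT motif CATTCC (of TEAD factors) and TATAAA, each searched on both strands, and the MEF2 consensus, which was added after the sequences were seen. No marked motif overlaps another.
Tnnt1: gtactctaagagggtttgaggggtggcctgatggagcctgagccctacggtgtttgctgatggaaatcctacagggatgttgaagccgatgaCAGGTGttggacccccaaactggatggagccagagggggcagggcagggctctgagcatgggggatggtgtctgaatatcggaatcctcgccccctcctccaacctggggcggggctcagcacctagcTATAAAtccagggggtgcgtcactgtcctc
Tnni1: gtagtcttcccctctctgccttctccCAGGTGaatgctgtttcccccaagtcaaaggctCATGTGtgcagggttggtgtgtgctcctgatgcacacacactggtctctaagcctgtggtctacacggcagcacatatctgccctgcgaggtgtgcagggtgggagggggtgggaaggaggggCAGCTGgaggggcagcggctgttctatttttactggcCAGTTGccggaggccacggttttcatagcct
Tnnc1: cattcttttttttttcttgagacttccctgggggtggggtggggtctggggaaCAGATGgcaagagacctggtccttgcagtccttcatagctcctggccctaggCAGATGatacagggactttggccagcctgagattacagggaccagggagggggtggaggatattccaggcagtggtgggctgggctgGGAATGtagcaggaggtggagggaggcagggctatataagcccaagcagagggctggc
Casq2: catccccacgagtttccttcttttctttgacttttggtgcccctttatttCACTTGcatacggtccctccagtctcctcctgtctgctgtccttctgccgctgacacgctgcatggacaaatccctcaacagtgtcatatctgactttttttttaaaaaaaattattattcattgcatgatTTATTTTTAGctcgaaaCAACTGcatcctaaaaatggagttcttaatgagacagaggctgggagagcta
*Tnni1* had 4 E-boxes, *Tnnc1* and *Casq2* had 2 each and *Tnnt1* had 1. *Tnnt1* also held a TATAAA beginning 30 bases before its start, *Tnnc1* an MCAT motif on the opposite strand beginning 58 bases before its start, and *Casq2* a MEF2 match beginning 69 bases before its start. RefSeq windows were matched for 9 of the 10 isoforms (not for *Atp2a2*), and all 9 held an E-box, against 66.2% of the 32851 windows of this length in the table. The MCAT motif was in 3 of the 9 (*Myh7*, *Myl3* and *Tnnc1*) against 12.6% of windows, TATAAA in 1 of 9 against 12.4%, and the MEF2 consensus in 1 of 9 against 2.92%. These matches describe letters in a window and do not show that a factor binds there.

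Of the 10 isoforms, *Casq2*, which stores calcium in the sarcoplasmic reticulum, was higher in NOX4-deficient muscle and passed the test, and the other 9 did not. All 10 had log2 fold changes above 0 (NOX4-deficient over control), from 0.35 for *Myh7b* to 1.14 for *Myh7*, with a median of 0.64 against 0.01 over all 12725 rows. With a call set at an adjusted p under 0.05 and a log2 fold change beyond 0.5 in either direction, 1 of 10 isoforms was called, and 6.16% of all rows were called (2.68% higher, 3.48% lower). The groups of 4 did not overlap for 1 of 10 isoforms, against 16.2% of all rows (7.2% higher, 8.97% lower). A log2 fold change at least as high as that of *Myh7b* was seen in 15.4% of rows, and one above 0 in 52.3%. The isoforms moved together between mice of the same genotype, so that 10 fold changes of 1 sign are not 10 separate observations. By DESeq2 and pydeseq2, too, *Casq2* was the only isoform called.

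**Figure D1:**
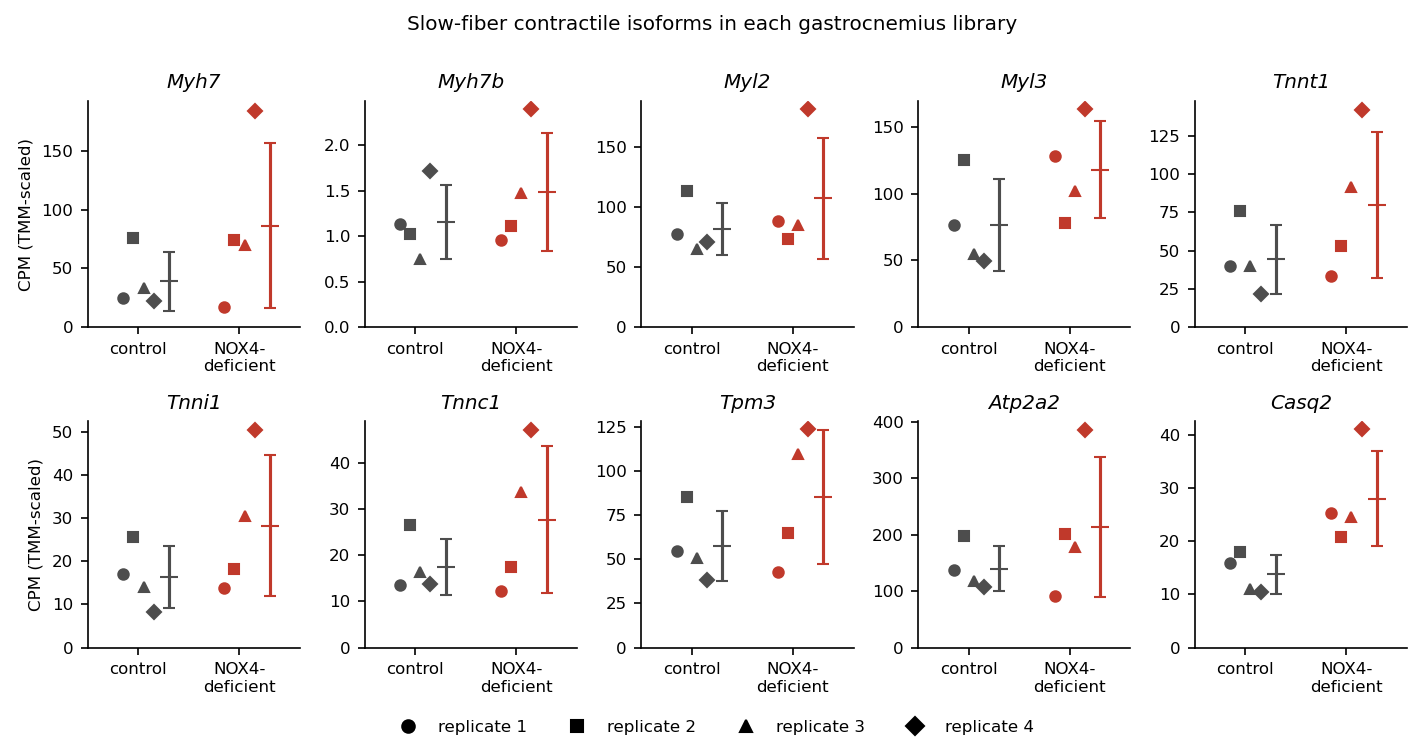
TMM-scaled CPM of each slow-fiber isoform (vertical axes, starting at 0, different for each gene) in the 4 control and 4 NOX4-deficient libraries; each symbol is 1 mouse, shaped by its replicate number, and bars give the mean ± SD. NOX4-deficient replicate 4 is the highest of its genotype in all 10 panels, and *Casq2* is the only panel in which the genotypes do not overlap.

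The heavy chain of slow fibers, *Myh7*, was at 24.7, 76.3, 33.3 and 22.7 CPM across control replicates 1 to 4 and 17.6, 74.0, 70.3 and 184 CPM across NOX4-deficient replicates 1 to 4. Control replicate 2 was well above the other controls, NOX4-deficient replicate 1 was below every control, and the groups overlapped. Means were 39.3 ± 25.1 and 86.5 ± 69.9 CPM (SD, n = 4 each). The log2 fold change was 1.14 with a standard error (SE) of 0.72 (edgeR adjusted p = 0.401). The highest mouse had 3.36 times the *Myh7* of the lowest in control and 10.4 times in NOX4-deficient muscle, the widest range of any isoform in the NOX4-deficient group. Without NOX4-deficient replicate 4 the log2 fold change was 0.47, and without control replicate 2 it was 1.68 (edgeR adjusted p = 0.725 and 0.241).

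*Myh7b*, a heavy chain gene related to *Myh7* and transcribed at low levels in slow and cardiac muscle, had 19, 20, 14 and 33 counts across control replicates 1 to 4 and 16, 22, 28 and 41 across NOX4-deficient replicates 1 to 4. It was the least abundant isoform, and its log2 fold change of 0.35 did not exceed its SE of 0.36 (edgeR adjusted p = 0.602). Control replicate 4, the library with heart RNA, was the highest control for *Myh7b* and for no other isoform. Exons of *Myh7b* overlap those of *Trpc4ap* on the opposite strand, which had 2203 to 2841 counts per library, and since the libraries are unstranded, reads of these genes cannot be told apart where they overlap.

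Counts of the 4 adult heavy chains, divided by the length of the longest coding transcript, placed *Myh7* far below the fast chains. *Myh7* made up 0.0518%, 0.147%, 0.0551% and 0.0429% of the heavy chain signal per kilobase in control replicates 1 to 4 and 0.0360%, 0.127%, 0.119% and 0.317% in NOX4-deficient replicates 1 to 4. *Myh4*, the chain of the fastest fibers (IIb), made up 94.2% ± 1.19 in control and 95.2% ± 2.25 in NOX4-deficient muscle (SD, n = 4 each). *Myh1* (IIx) was at 4.09% ± 0.636 and 3.00% ± 1.38, and *Myh2* (IIa) at 1.61% ± 0.614 and 1.67% ± 0.806. The ranges of the genotypes overlapped for all 4 chains.

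The light chains sit on the neck of the myosin head. *Myl2*, the regulatory light chain of slow and ventricular muscle, was at 77.6, 113, 64.9 and 70.7 CPM across control replicates 1 to 4 and 88.4, 73.0, 85.2 and 182 CPM across NOX4-deficient replicates 1 to 4. The first 3 NOX4-deficient libraries lay within the control range and replicate 4 lay above it. The log2 fold change of 0.39 (SE 0.29, edgeR adjusted p = 0.465) was 0.03 without NOX4-deficient replicate 4. *Myl3*, the essential light chain of the same fibers, was at 76.7, 125, 54.8 and 49.6 CPM across control replicates 1 to 4 and 128, 78.4, 102 and 163 CPM across NOX4-deficient replicates 1 to 4. All NOX4-deficient libraries were above 3 of the 4 controls, and control replicate 2 was above 2 of the 4 NOX4-deficient libraries. The log2 fold change of *Myl3* was 0.62 (SE 0.31, edgeR adjusted p = 0.276), and without control replicate 2 it was 0.97 and was called (edgeR adjusted p = 0.0497).

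The thin filament genes, whose products switch contraction on with calcium, gave similar patterns to each other. *Tnnt1*, which anchors troponin to tropomyosin, was at 40.3, 75.8, 40.0 and 21.5 CPM across control replicates 1 to 4 and 33.7, 52.8, 91.3 and 142 CPM across NOX4-deficient replicates 1 to 4. Replicates 3 and 4 of the NOX4-deficient mice were above every control, and replicates 1 and 2 lay within the control range. Its log2 fold change was 0.85 (SE 0.52, edgeR adjusted p = 0.381). *Tnni1*, the inhibitory subunit, was at 17.1, 25.6, 14.1 and 8.32 CPM across control replicates 1 to 4 and 13.8, 18.4, 30.6 and 50.5 CPM across NOX4-deficient replicates 1 to 4, with a log2 fold change of 0.80 (SE 0.45, edgeR adjusted p = 0.336). *Tnnc1*, the calcium-binding subunit of slow and cardiac muscle, was at 13.6, 26.5, 16.3 and 13.7 CPM across control replicates 1 to 4 and 12.3, 17.5, 33.7 and 47.3 CPM across NOX4-deficient replicates 1 to 4, with a log2 fold change of 0.66 (SE 0.42, edgeR adjusted p = 0.392). In both genes, too, NOX4-deficient replicates 3 and 4 exceeded every control and replicates 1 and 2 did not.

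*Tpm3*, which encodes the slow tropomyosin and, from the same gene, forms made in non-muscle cells that gene-level counts do not separate, was at 54.8, 85.2, 50.8 and 38.4 CPM across control replicates 1 to 4 and 42.8, 65.1, 110 and 124 CPM across NOX4-deficient replicates 1 to 4. It showed the same order of mice as *Tnnt1* in both groups. The log2 fold change was 0.57 (SE 0.35, edgeR adjusted p = 0.377). Without NOX4-deficient replicate 4, the log2 fold changes of *Tnnt1*, *Tnni1*, *Tnnc1* and *Tpm3* were 0.43, 0.38, 0.29 and 0.35.

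Of the calcium-handling genes, *Atp2a2*, which encodes the slow and cardiac pump SERCA2a and the widely expressed SERCA2b, was at 138, 197, 118 and 107 CPM across control replicates 1 to 4 and 91.1, 201, 179 and 386 CPM across NOX4-deficient replicates 1 to 4. NOX4-deficient replicate 1 was below every control, and replicate 4 was well above. The log2 fold change was 0.61 (SE 0.40, edgeR adjusted p = 0.402), and 0.18 without NOX4-deficient replicate 4. *Casq2* was at 15.9, 17.9, 11.1 and 10.4 CPM across control replicates 1 to 4 and 25.3, 20.9, 24.6 and 41.0 CPM across NOX4-deficient replicates 1 to 4. The lowest NOX4-deficient mouse was above the highest control mouse, although by little. Means were 13.8 ± 3.66 and 28 ± 8.93 CPM (SD, n = 4 each). The log2 fold change was 1.02 (SE 0.23, edgeR adjusted p = 0.0220; DESeq2, adjusted p = 6.97e-04). *Casq2* kept its call without NOX4-deficient replicate 4 (log2 fold change 0.79, edgeR adjusted p = 0.0321). It lost the call without control replicate 3 (0.94, edgeR adjusted p = 0.0576) and without control replicate 4, the library with heart RNA (0.90, edgeR adjusted p = 0.0585), which were its lowest controls.

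Without control replicate 4, the log2 fold changes of the other 9 isoforms were 0.95 for *Myh7*, 0.61 for *Myh7b*, 0.33 for *Myl2*, 0.46 for *Myl3*, 0.62 for *Tnnt1*, 0.58 for *Tnni1*, 0.56 for *Tnnc1*, 0.42 for *Tpm3* and 0.50 for *Atp2a2*, all above 0 and none called. Without NOX4-deficient replicate 4 they were again all above 0, the lowest being 0.03 for *Myl2* and 0.05 for *Myh7b*. In no single-library omission did an isoform change direction.

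**Figure D2:**
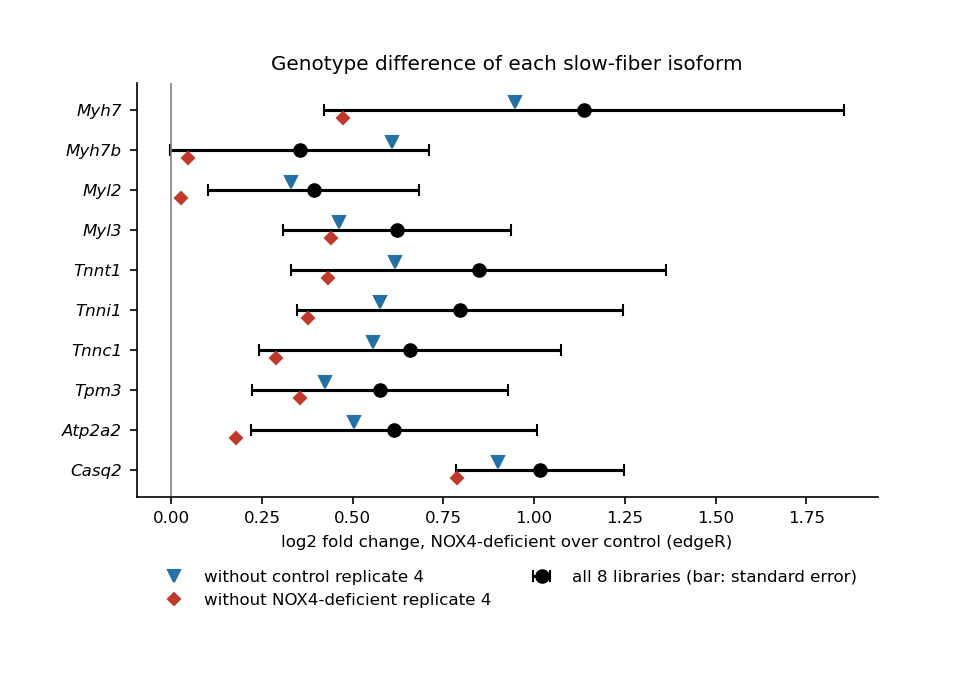
Log2 fold change of each isoform from edgeR (horizontal axis, NOX4-deficient over control; the vertical line marks 0) with all 8 libraries (black circles, bars ± standard error), without control replicate 4 (blue triangles) and without NOX4-deficient replicate 4 (red diamonds). *Casq2* has the smallest standard error (0.23) and *Myh7* the widest (0.72), and for every isoform except *Myh7b* both omissions moved the value toward 0.

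Set against each other per kilobase of the longest coding transcript, the mean control levels ran from *Myl2* (91.8 CPM per kb) and *Myl3* (81.7) through *Tnnt1* (41.9), *Atp2a2* (31.2), *Tpm3* (25.7), *Tnnc1* (24.3), *Tnni1* (14.2), *Myh7* (6.30) and *Casq2* (5.41) to *Myh7b* (0.188). Neighbors that kept this order in all 4 control libraries were *Myl3* over *Tnnt1*, *Atp2a2* over *Tpm3*, *Tnnc1* over *Tnni1*, *Tnni1* over *Myh7*, and *Casq2* over *Myh7b*. The other neighboring pairs were ordered so in only 2 or 3 of the 4 libraries, and *Myh7* and *Casq2* changed places in 2 of 4. In NOX4-deficient muscle *Myl2* was above *Myl3* in only 1 of 4 libraries.

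A ratio of a slow isoform to its fast counterpart within the same library does not depend on how libraries are scaled. The log2 ratio of counts of *Myh7* to *Myh4* was -10.78, -9.25, -10.69 and -11.06 in control and -11.31, -9.52, -9.63 and -8.14 in NOX4-deficient replicates 1 to 4. The mean difference of 0.80 was smaller than the pooled SD of 1.08, and the groups overlapped. The mean log2 ratio was higher in NOX4-deficient muscle for all 9 pairs: by 0.69 for *Tnni1*/*Tnni2*, 0.64 for *Tnnt1*/*Tnnt3*, 0.57 for *Myl3*/*Myl1*, 0.49 for *Casq2*/*Casq1*, 0.43 for *Atp2a2*/*Atp2a1*, 0.32 for *Tnnc1*/*Tnnc2*, 0.21 for *Tpm3*/*Tpm1* and 0.07 for *Myl2*/*Mylpf*. Groups overlapped in all 9 pairs, and only for *Myl3*/*Myl1* did the difference exceed the pooled SD (0.55). Without control replicate 4 the differences ran from 0.10 to 0.59, and the groups still overlapped in all 9 pairs. Without NOX4-deficient replicate 4 the differences ran from -0.24 to 0.38, with *Myh7*/*Myh4* at 0.30. They were below 0 for *Myl2*/*Mylpf* (-0.24), *Tnnc1*/*Tnnc2* (-0.08) and *Tpm3*/*Tpm1* (-0.05). Without NOX4-deficient replicate 1 the difference for *Myh7*/*Myh4* was 1.35. *Tnnc2*, the fast troponin C, was listed at 6.74 to 11.7 CPM, far below the other fast genes, so the *Tnnc1*/*Tnnc2* ratio cannot be read as the balance of fiber types.

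The difference for calsequestrin was smaller as a ratio than for *Casq2* alone. *Casq1*, the fast form, averaged 1946 ± 438 CPM over the controls and 2770 ± 483 CPM over the NOX4-deficient mice (SD, n = 4 each). Its log2 fold change was 0.51 (edgeR adjusted p = 0.0897; pydeseq2, adjusted p = 0.0414). The log2 ratio of *Casq2* to *Casq1* was -6.95, -6.68, -7.83 and -7.14 in control and -6.85, -6.82, -7.10 and -5.88 in NOX4-deficient replicates 1 to 4, with overlap. By edgeR 0 of the 9 fast counterparts were called and 1 had an unadjusted p under 0.05, while DESeq2 called 1, *Casq1*. All 9 log2 fold changes were above 0, with a median of 0.15.

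**Figure D3:**
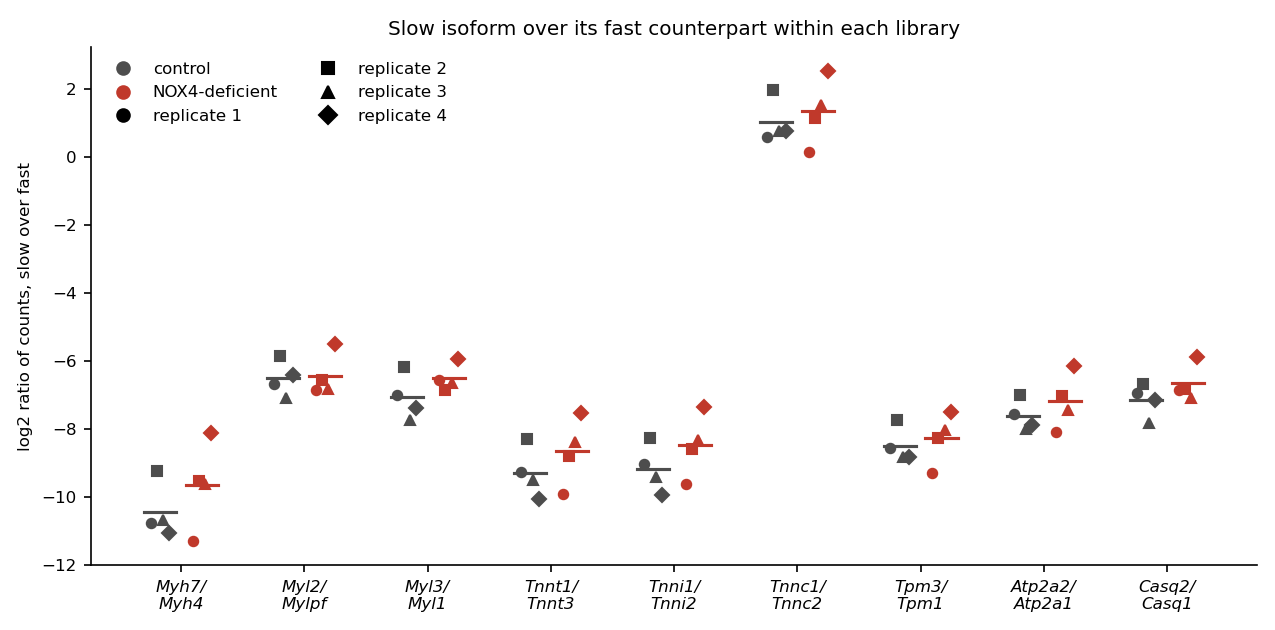
Log2 ratio of counts of each slow isoform to its fast counterpart within each library (vertical axis), for 4 control (grey) and 4 NOX4-deficient (red) mice, with symbols by replicate number and lines at the group means. The groups overlap in all 9 pairs, and NOX4-deficient replicate 4 is the highest point of its group in each.

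Within each genotype the same mice were often highest or lowest across the isoforms. Control replicate 2 was the highest control for 9 of 10 isoforms, the exception being *Myh7b*, and control replicate 4 was the lowest for 7. NOX4-deficient replicate 4 was the highest for all 10, and NOX4-deficient replicate 1 was the lowest for 7 and replicate 2 for 3 (*Myl2*, *Myl3* and *Casq2*). Averaged over the 10 isoforms, the deviation of log2 CPM from the genotype mean was -0.03, 0.63, -0.20 and -0.40 in control and -0.73, -0.30, 0.12 and 0.90 in NOX4-deficient replicates 1 to 4.

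Pearson and Spearman correlations of these deviations from the genotype mean were computed over the 8 mice, with exact two-sided permutation tests in which mice were permuted within genotype. *Myh7* was most closely followed by *Atp2a2* (r = 0.964, exact permutation p = 0.00868; rho = 0.929, p = 0.00694). It was followed next by *Tnnc1* (r = 0.908, exact permutation p = 0.00694; rho = 0.738, p = 0.066), *Tnnt1* (r = 0.898, exact permutation p = 0.0104; rho = 0.833, p = 0.0243) and *Tpm3* (r = 0.895, exact permutation p = 0.00868; rho = 0.833, p = 0.0243), each with an adjusted p of 0.0234 over the 9 relations. For *Tnni1*, r was 0.854 (exact permutation p = 0.0243, adjusted p = 0.0437; rho = 0.81, p = 0.0278). The other 4 did not pass: *Myl2* had r = 0.676 (rho = 0.286), *Casq2* 0.58 (rho = 0.381), *Myh7b* 0.449 (rho = 0.31) and *Myl3* 0.426 (rho = 0.31), with exact permutation p from 0.201 to 0.349. By rank, 4 of the 9 relations had an unadjusted p under 0.05 and 0 passed after adjustment (exact permutation, lowest adjusted p = 0.0625).

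The mice farthest from the median of the *Myh7* deviations were NOX4-deficient replicates 1 and 4. Without them, over 6 mice, r with *Myh7* was 0.879 for *Atp2a2*, 0.805 for *Tnnt1*, 0.748 for *Tpm3*, 0.735 for *Tnnc1* and 0.724 for *Tnni1*, and 0.811 for *Myl2*, 0.806 for *Myl3*, 0.617 for *Casq2* and -0.409 for *Myh7b*. The 48 orders left to the exact permutation test gave no adjusted p under 0.225, so that none of the relations passed without these mice. Leaving out a single library, the relations of *Myh7* with *Atp2a2*, *Tnnc1*, *Tnnt1* and *Tpm3* did not pass in 6 of 8 omissions and that with *Tnni1* in 8 of 8. As background, r of *Myh7* with all 12685 other genes whose names stand for a row had a median of -0.00291, and 2.66% of them exceeded 0.8, against 5 of the 9 isoforms.

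Over all 45 pairs of isoforms r was above 0, with a median of 0.744. Among the closest were pairs of thin filament genes: *Tnnt1* and *Tnni1* had r = 0.989 (rho = 0.976), *Tnnt1* and *Tpm3* 0.979 (rho = 1), *Tnni1* and *Tpm3* 0.958 and *Tnnc1* and *Tpm3* 0.955. The exact permutation test gave an adjusted p of 0.0355 over the 45 pairs for each of these 4. In all, 16 of 45 pairs passed by Pearson and 4 by Spearman. The 45 pairs were not computed again without NOX4-deficient replicates 1 and 4, whose deviations for *Tnnt1* were -1.04 and 1.03. *Casq2* was closest to *Myl2* (r = 0.925, rho = 0.857) and *Myl3* (r = 0.916, rho = 0.952; exact permutation, adjusted p = 0.0355 each by Pearson), and *Myl2* and *Myl3* had r = 0.844. NOX4-deficient replicate 1 was the library in which these genes parted from the rest: its deviation was 0.18 for *Myl3*, -0.09 for *Casq2* and -0.18 for *Myl2*, against -1.86 for *Myh7*, -1.05 for *Atp2a2* and -1.04 for *Tnnt1*. *Myl2*, *Myl3* and *Casq2* were set apart after these values were seen. The lowest r was between *Myh7b* and *Myl3* (0.163).

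**Figure D4:**
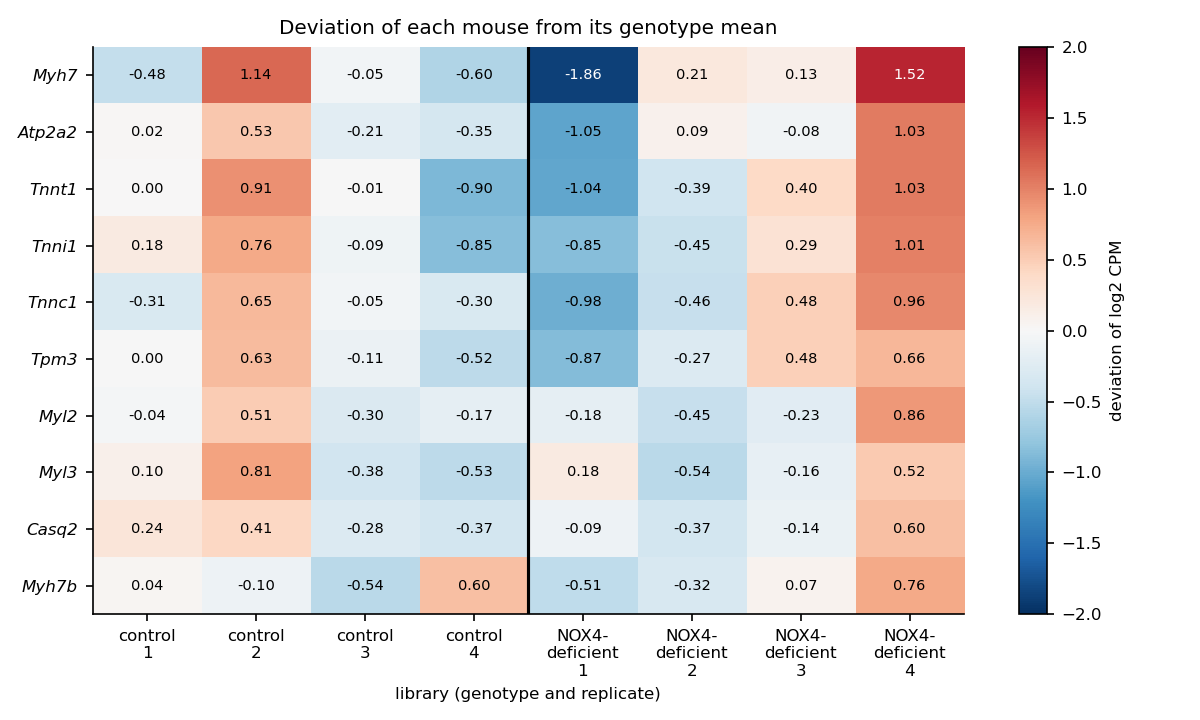
Deviation of log2 CPM of each isoform (rows) in each library (columns) from the mean of its genotype, printed in each cell and colored from blue (below the mean) to red (above); the black line separates the genotypes. Control replicate 2 and NOX4-deficient replicate 4 are red in nearly every row, NOX4-deficient replicate 1 is darkest blue for *Myh7* (-1.86), and *Myl3* in that library is above its mean (0.18).

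Genes on a list of other slow-fiber genes gave log2 fold changes in both directions, 4 above 0 and 10 below. Of these 14 genes, some of which, such as *Actn2*, are also made in fast fibers, 5 were called lower and 1 higher in NOX4-deficient muscle (edgeR, adjusted p under 0.05), against 3.48% lower and 2.68% higher among all rows, and the median log2 fold change was -0.47. *Csrp3* (muscle LIM protein, at the Z-disc) was at 117, 123, 143 and 125 CPM across control replicates 1 to 4 and 26.4, 16.1, 15 and 26.3 CPM across NOX4-deficient replicates 1 to 4, a log2 fold change of -2.60 (SE 0.19, edgeR adjusted p = 2.34e-05) with groups far apart. *Ankrd2*, a stretch-responsive ankyrin repeat protein of slow muscle, was at 196, 220, 193 and 190 CPM across control replicates 1 to 4 and 65.2, 28, 33.6 and 71.7 CPM across NOX4-deficient replicates 1 to 4 (log2 fold change -2.01, SE 0.28, edgeR adjusted p = 0.00313). *Mybpc1*, slow myosin-binding protein C, was at 1636 ± 245 and 872 ± 190 CPM in the control and NOX4-deficient mice (SD, n = 4 each here and for the genes that follow; log2 fold change -0.91, edgeR adjusted p = 0.00611), and *Actn2*, a cross-linker of the Z-disc, at 847 ± 84.0 and 457 ± 147 CPM (log2 fold change -0.89, edgeR adjusted p = 0.0184). The fifth was *Myom3*, an M-band protein (log2 fold change -0.86, edgeR adjusted p = 0.0220). The gene called higher, *Myl6b*, encodes a slow essential light chain and was at 4.79 ± 0.661 and 7.73 ± 1.85 CPM (log2 fold change 0.69, edgeR adjusted p = 0.0483).

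Without control replicate 4, 4 of the 14 were called lower (*Csrp3*, *Ankrd2*, *Mybpc1* and *Actn2*) and 0 higher (edgeR). *Csrp3*, *Ankrd2* and *Mybpc1* kept their calls in all 18 alternatives fitted in R, whereas *Myl6b* lost its call under 9 and *Myom3* under 5. *Myoz2*, *Mb*, *Ldhb* and *Fabp3*, genes of slow and oxidative fibers, had log2 fold changes of -0.13, 0.08, 0.15 and -0.61 with overlapping groups (edgeR adjusted p = 0.854, 0.916, 0.859 and 0.216). Their deviations from the genotype mean had r of 0.56, 0.497, 0.587 and 0.527 with the mean deviation of the 10 isoforms over 8 mice. For the 5 genes called lower r was 0.0459 for *Csrp3*, 0.292 for *Ankrd2*, 0.333 for *Mybpc1*, 0.424 for *Actn2* and 0.462 for *Myom3*. These r values describe the 8 libraries and were not tested.

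**Figure D5:**
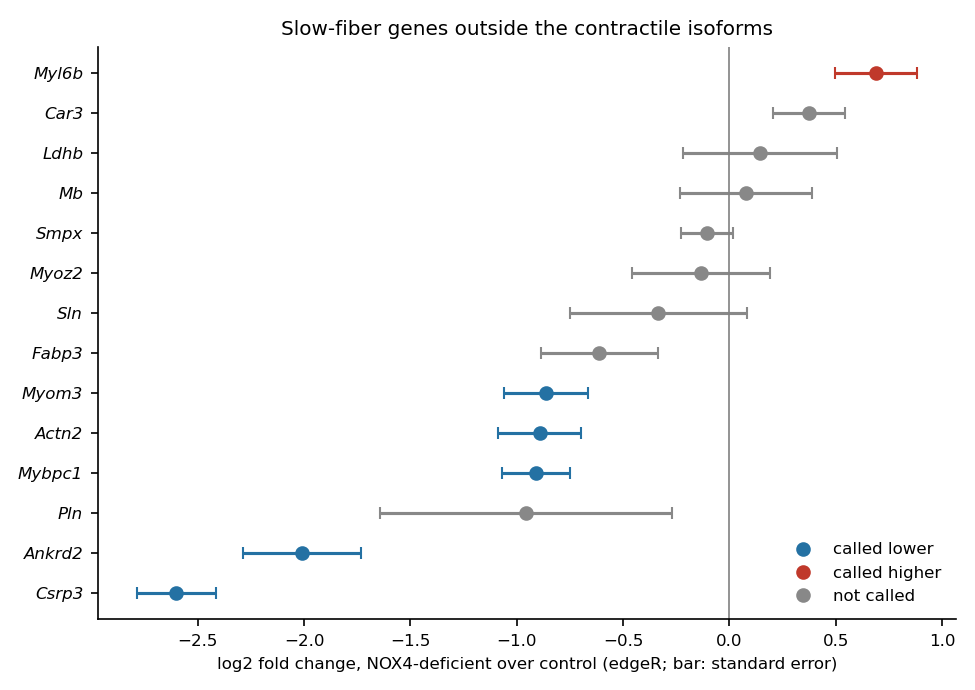
Log2 fold change (horizontal axis, NOX4-deficient over control, edgeR; bars ± standard error; the vertical line marks 0) of 14 slow-fiber genes outside the contractile isoforms, colored by call; *Car3* is listed in the table as *Ca3*. *Csrp3* (-2.60) and *Ankrd2* (-2.01) lie farthest below 0, and *Myl6b* (0.69) is the only gene called higher.

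Most regulators of the slow and fast programs did not pass the test, although 16 of 36 had an unadjusted p under 0.05 (edgeR). Of 36 tested, 4 were called lower and 2 higher (edgeR), against 3.48% and 2.68% of all rows, with a median log2 fold change of -0.11, and the counts were equal without control replicate 4. DESeq2 called 6 lower and 2 higher. The 2 added by DESeq2, both with overlapping groups, were *Ppargc1a*, a coactivator of mitochondrial and slow fiber genes (log2 fold change -1.39, SE 0.42, edgeR adjusted p = 0.0855; DESeq2, adjusted p = 0.0420), and *Six4* (-0.56, edgeR adjusted p = 0.0888; DESeq2, adjusted p = 0.0462). *Rcan1*, a target and inhibitor of calcineurin, the phosphatase that activates NFAT factors in slow fibers, averaged 193 ± 33.3 CPM over the controls and 79.1 ± 6.61 CPM over the NOX4-deficient mice (log2 fold change -1.29, SE 0.13, edgeR adjusted p = 1.73e-04). *Hdac4*, a class IIa histone deacetylase that represses MEF2, was at 81.2 ± 9.94 and 40.3 ± 8.29 CPM (log2 fold change -1.01, edgeR adjusted p = 0.00203). *Ppard*, a nuclear receptor of oxidative metabolism, had a log2 fold change of -0.58 (edgeR adjusted p = 0.0153), and *Vgll2*, a TEAD cofactor, one of -0.90 (edgeR adjusted p = 0.0222), with groups that overlapped. *Vgll2* lost its call under 7 of 18 alternatives. *Mafa*, a transcription factor of the large MAF family that drives *Myh4*, was higher, at 30.9 ± 3.81 and 97.1 ± 16.6 CPM (log2 fold change 1.65, SE 0.14, edgeR adjusted p = 4.98e-05). *Nfatc2*, an NFAT factor, was also higher, at 8.47 ± 0.667 and 16.4 ± 4.28 CPM (log2 fold change 0.96, edgeR adjusted p = 0.00733). Of 8 other fast fiber genes, 0 were called by edgeR or DESeq2, 0 had an unadjusted p under 0.05, and their median log2 fold change was 0.02.

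Markers of other cells gave few calls (edgeR). In the skeletal muscle, adipocyte and endothelial lists 0 genes were called and 0 had an unadjusted p under 0.05. In the fibroblast and tendon, immune and Schwann cell lists 0 were called by edgeR, with 3, 2 and 2 genes at an unadjusted p under 0.05, and DESeq2 called 1 Schwann cell gene. Of the 8 embryonic and denervation genes tested, 4 had an unadjusted p under 0.05 and 1 was called by edgeR, against 6.16% of all rows. This was *Myh3*, the embryonic heavy chain, which was higher in NOX4-deficient muscle (1.96 ± 0.445 CPM over the controls and 4.77 ± 1.12 CPM over the NOX4-deficient mice, log2 fold change 1.28, edgeR adjusted p = 0.00807). DESeq2 also called 2 lower, *Myog*, a myogenic transcription factor (log2 fold change -1.30, edgeR adjusted p = 0.0686; DESeq2, adjusted p = 0.00470), and *Gadd45a*, a stress-response gene that rises in denervated muscle (-1.33, edgeR adjusted p = 0.0704; DESeq2, adjusted p = 0.0258). Of the 3 blood genes, *Hba-a1* (log2 fold change 1.24, edgeR adjusted p = 0.00978) and *Hbb-bs* (1.00, edgeR adjusted p = 0.0153) were called higher. Of 9 heart genes 3 passed the filter and 0 were called by edgeR, with 1 at an unadjusted p under 0.05 and 1 called by DESeq2.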

How the data were processed

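RNA was extracted from homogenized gastrocnemius, and poly(A) libraries were prepared without strand information and sequenced as paired ends. The authors deposited raw read counts per gene, obtained by running nf-core/rnaseq; the submitters' processing notes name STAR and GRCm39. All 8 columns matched a sample by name. Of 32390 rows, 11715 had no count and 412 repeat an earlier name (the name stands for the row with the most counts).

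Counts were analyzed with edgeR (TMM, filterByExpr, robust quasi-likelihood F test, genotype as the only term), with Benjamini-Hochberg adjustment over 12725 rows; the common biological coefficient of variation was 0.174. Called genes had an adjusted p under 0.05 and a log2 fold change beyond 0.5 in either direction, which are the cutoffs in the study's methods. The deviations used log2 CPM with a prior count of 1. Alternatives were other scalings, filters and thresholds, DESeq2, pydeseq2 0.5.4, a replicate block and each replicate left out. Replicates of a group all differed by more than sampling noise.

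The labels do not say that replicate numbers pair the mice, and the reported fit did not use them. Correlations of same-numbered samples were 0.214, 0.142, 0.0345 and 0.0406, against -0.21 to 0.187 for the others. So few weak values cannot decide whether the numbers pair mice. The isoforms, their fast counterparts and all gene lists were chosen with earlier results of these data known. Genes named are the 10 isoforms, their fast counterparts, up to 4 called genes for each list and direction with the smallest p, 8 genes most like the isoforms over mice (mean CPM of at least 5), of which 1 is not reported here, and markers that bear on a result; *Myom3*, *Myoz2*, *Mb*, *Ldhb*, *Ppargc1a*, *Six4*, *Myog* and *Gadd45a* were added after their values were seen. Lengths came from GENCODE transcripts and upstream sequences from RefSeq, both on GRCm38, so that no gene coordinates of the counting build are given. Genes that overlap on opposite strands can share reads: *Myh7* with *Mhrt* (0 to 11 counts), *Myl3* with *Pth1r* (12 to 28) and *Myl2* with *Ccdc63* (0 to 2), beside *Myh7b*.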

Additional observations from a re-analysis of the deposited data

Results flagged for a closer look

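The gap between the most extreme library and its nearest neighbor, as a share of the group's range, was above Dixon's critical value for 4 samples in 4 of 64 groups of 4 examined, where chance gives about 3.2. For *Myl2* it was 0.859 in NOX4-deficient muscle, where replicate 4 was at 182 CPM and the next library at 88.4 CPM. The sum over the other slow fiber genes gave 0.915 in control, where replicate 4 was lowest at 5440 CPM and the next library at 7256 CPM. The sum over the skeletal muscle markers gave 0.922 in control, where replicate 3 was highest at 80500 CPM and the next at 66520 CPM. The sum over the adipocyte markers gave 0.862 in control, where replicate 1 was highest at 299.2 CPM and the next at 181.6 CPM.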

How the results depend on the processing

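Every isoform kept a log2 fold change above 0 in all 19 alternatives. The number of isoforms called, 1 in the reported fit, was 0 at an adjusted p of 0.01 and 0 with the replicate block, and ranged from 0 to 2 with each library left out (0 without control replicate 3 or 4, 2 without control replicate 2). The labels do not say that replicate numbers pair mice, and not every sample correlated best with its own number. With the block *Casq2* had a log2 fold change of 1.00 (edgeR adjusted p = 0.0733), *Myh7* one of 0.86, and 933 rows were called. Over all rows 784 were called, 252 at an adjusted p of 0.01, 1018 by DESeq2, and 499 (without control replicate 4) to 712 with each library left out. *Nox4* was called in no alternative (edgeR or DESeq2 adjusted p 0.106 to 0.489), with log2 fold changes from -0.82 to -0.36.

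Without NOX4-deficient replicates 1 and 4, r with *Myh7* was -0.409 for *Myh7b*, 0.805 for *Tnnt1*, 0.724 for *Tnni1*, 0.735 for *Tnnc1*, 0.748 for *Tpm3* and 0.879 for *Atp2a2*, and no relation passed the exact permutation test, which has fewer orders with fewer mice. With each library left out r was 0.839 to 0.945 for *Tnnt1*, 0.757 to 0.918 for *Tnni1*, 0.835 to 0.987 for *Tnnc1*, 0.791 to 0.946 for *Tpm3* and 0.917 to 0.987 for *Atp2a2*, with exact permutation adjusted p up to 0.156 (*Tnnt1*, *Tnnc1*, *Tpm3* and *Atp2a2*) and 0.212 (*Tnni1*). Other scalings changed no relation's side of the threshold. No difference in the ratio of slow to fast isoform moved by more than 1 SD between replicates, but some changed direction. The difference for *Myl2*/*Mylpf* was below 0 without control replicate 3 (-0.12) and without NOX4-deficient replicate 4 (-0.24). Those for *Tnnc1*/*Tnnc2* and *Tpm3*/*Tpm1* were below 0 without NOX4-deficient replicate 4.

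At these depths *Myh7b*, with 14 to 41 counts, is the isoform whose value depth limits most.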

Other observations

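Outside the 10 isoforms, genes among those whose deviations over the 8 mice were most like the mean deviation of the isoforms, out of 8739 genes with a mean of at least 5 CPM, were *Fastkd1* (r = 0.972), *Tsga10* (0.963), *Homer2* (0.945), *Acad11* (0.94), *Crybg3* (0.934), *Epas1* (0.93) and *Polg* (0.928). *Fastkd1* and *Polg* encode mitochondrial proteins, *Homer2* a scaffold protein and *Epas1* the hypoxia-inducible factor HIF2A. They were among the highest of many genes compared over 8 mice, and these r values are a description without a test. By edgeR none of these genes was called between genotypes, and their log2 fold changes ran from -0.42 (*Fastkd1*) to 0.52 (*Homer2*). None of the slow fiber genes outside the isoforms was among them, and *Myh2*, the IIa heavy chain, had r = 0.675, against 0.488 for *Myh1* and 0.137 for *Myh4*.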
